A study of Mus musculus with 4 samples.

Results

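A set of 9 genes was followed in blood vascular endothelial cells (BECs) sorted from mouse ear dermis. They are genes of glucose uptake and glycolysis: *Slc2a1*, *Hk1*, *Hk2*, *Pfkfb3*, *Pfkp*, *Pgk1*, *Eno1*, *Pkm* and *Ldha*. The genes were chosen by name, and their Ensembl identifiers were looked up among the 46517 gene rows of the count files. All 9 had a row, and 8 of them passed the limit on low counts that 15659 genes passed. The exception was *Hk2*.

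Endothelial cells take up glucose through facilitated transporters and break most of it down to lactate, even where oxygen is plentiful. GLUT1, the product of *Slc2a1*, brings glucose in, hexokinases (*Hk1*, *Hk2*) trap it as glucose-6-phosphate, and phosphofructokinase (*Pfkp* encodes the platelet isoform) commits it to glycolysis, under stimulation by a product of the enzyme encoded by *Pfkfb3*. Phosphoglycerate kinase (*Pgk1*), enolase (*Eno1*) and pyruvate kinase (*Pkm*) carry out later steps, and lactate dehydrogenase A (*Ldha*) turns pyruvate into lactate.

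In the GENCODE vM21 annotation of GRCm38, the transporter gene is *Slc2a1* (ENSMUSG00000028645) at chr4:119108711-119137983 on the plus strand. The hexokinase genes are *Hk1* (ENSMUSG00000037012) at chr10:62268855-62379908 on the minus strand and *Hk2* (ENSMUSG00000000628) at chr6:82725025-82774454 on the minus strand. For the phosphofructokinase step they are *Pfkfb3* (ENSMUSG00000026773) at chr2:11471433-11554077 on the minus strand and *Pfkp* (ENSMUSG00000021196) at chr13:6579768-6648777 on the minus strand. For the later steps they are *Pgk1* (ENSMUSG00000062070) at chrX:106187100-106203699 on the plus strand, *Eno1* (ENSMUSG00000063524) at chr4:150236721-150248879 on the plus strand and *Pkm* (ENSMUSG00000032294) at chr9:59656368-59679375 on the plus strand. The lactate dehydrogenase gene is *Ldha* (ENSMUSG00000063229) at chr7:46841475-46855627 on the plus strand. Counts were made per gene, so exonic reads of all isoforms are summed, and the *Pkm* values do not separate its splice forms.

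The cells came from ears of wild-type female C57Bl/6 mice (C57BL/6 J in the study's methods), pooled from 6 mice and labelled adult and 12 to 26 weeks old, where the methods give another age range. Single CD31+/CD45-/Lyve1- cells were sorted into 4 plates of 384 wells, plates A and B of replicates 1 and 2, and were sequenced by Smart-seq2, a method that reads fragments along whole transcripts. No treatment or mutant was included, so the comparisons lie between classes of vessel. The labels do not say whether the replicates were separate pools, so p-values measure only the spread between these samples.

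After filtering for endothelial wells, 701 of 1536 wells were kept, 338 of replicate 1 (median 142614 reads) and 363 of replicate 2 (median 92974 reads). This set is larger than the one the study kept, whose level for excluding other cells is not given. Clustering without the genes of glycolysis, hypoxia and tissue dissociation gave 136 artery-like wells (45 and 91 in replicates 1 and 2), 162 capillary-like wells (125 and 37), 249 vein-like wells (123 and 126) and 154 unnamed wells (45 and 109). The class names rest on listed markers, of which 13 of 16 were higher in the artery-like cluster (*Vegfc*, *Fbln5*), 11 of 12 in the capillary-like (*Aqp7*, *Car4*, *Cd36*) and 11 of 12 in the vein-like (*Sele*, *Ackr1*, *Selp*). Also higher were 3 vein, 2 capillary, 4 fibroblast and 4 erythroid markers in the artery-like cluster. The vein-like cluster had 3 artery markers higher, and the capillary-like 2. Summed artery markers stood at 4499 and 3226 CPM in artery-like and 1938 and 2743 CPM in vein-like wells. At the next clustering resolution the vein-like class held 69 and 60 wells and the artery-like 103 and 168. The unnamed wells were led by *Mmrn1* and carried markers of lymphatic, mural, fibroblast and keratinocyte cells, so they entered no comparison between classes, though they count among the kept wells. The summed level of 10 mural markers lay between 253 and 1589 CPM in the named classes, against 20118 and 15412 CPM in 46 wells set aside for mural markers. The classes differed in depth, with medians of 123101 and 85554 reads per well in artery-like, 137331 and 79507 in capillary-like, and 186860 and 184556 in vein-like wells. Levels are mean CPM (counts of a gene scaled to a common total per well), and class orders and shares of wells are therefore also given with every well thinned to 20000 reads.

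The 300 bases around the annotated start of 3 of the genes (RefSeq, GRCm38.p6) are shown because *Ldha* had the highest level and *Hk2* the lowest, while *Slc2a1* had the lowest value for capillary-like wells against the other classes. Each runs 5′ to 3′ on the gene's strand, from 250 bases before to 50 bases after the start, and capitals mark the hypoxia response core letters ACGTG and GCGTG on either strand (CACGT and CACGC when read on the other strand).
Slc2a1, chr4:119108495-119108794, plus strand: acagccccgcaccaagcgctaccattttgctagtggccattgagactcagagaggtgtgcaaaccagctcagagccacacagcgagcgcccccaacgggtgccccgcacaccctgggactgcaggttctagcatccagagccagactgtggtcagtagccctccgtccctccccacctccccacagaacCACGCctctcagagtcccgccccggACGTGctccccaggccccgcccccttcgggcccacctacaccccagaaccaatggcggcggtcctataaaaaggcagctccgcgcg
Ldha, chr7:46845554-46845853, plus strand: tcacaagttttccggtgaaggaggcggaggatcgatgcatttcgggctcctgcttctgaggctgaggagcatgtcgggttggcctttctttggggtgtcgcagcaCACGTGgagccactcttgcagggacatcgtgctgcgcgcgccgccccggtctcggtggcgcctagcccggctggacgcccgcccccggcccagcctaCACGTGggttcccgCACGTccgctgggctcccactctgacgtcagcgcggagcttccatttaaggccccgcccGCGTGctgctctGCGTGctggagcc
Hk2, chr6:82774405-82774704, minus strand: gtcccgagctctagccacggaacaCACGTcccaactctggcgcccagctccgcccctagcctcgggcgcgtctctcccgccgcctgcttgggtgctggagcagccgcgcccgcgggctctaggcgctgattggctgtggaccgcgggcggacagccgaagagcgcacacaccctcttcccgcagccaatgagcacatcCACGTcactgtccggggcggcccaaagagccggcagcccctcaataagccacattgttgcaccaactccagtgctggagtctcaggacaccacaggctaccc
At least 1 of the cores was found in 7 of the 9 promoters, against 43.8% of 27025 promoters of the same length, 1 per gene (ACGTG in 19.7% and GCGTG in 32.5% of them). *Ldha* held 5 matches of ACGTG and 2 of GCGTG, where each CACGTG counts on both strands, *Slc2a1* held 1 of each, and *Hk2* held 2 of ACGTG. *Hk1* and *Pkm* held no match in this window. These letters are a description of the sequence and were found both in the gene with the highest and in the gene with the lowest level.

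Among the 9 genes, those of the last steps were the most abundant. Levels between genes were compared per kilobase of the longest principal transcript, as mean CPM per well over the kept wells. *Ldha* stood at 372 ± 143 CPM per kb (SD, n = 2 replicates), with 473 in replicate 1 and 271 in replicate 2. *Pkm* followed at 191 ± 36.8 CPM per kb (217 and 165) and *Eno1* at 114 ± 45.7 CPM per kb (147 and 81.9). The replicates of these 3 genes did not overlap with those of the next gene in this order.

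*Pfkp* was next at 34.1 ± 13.9 CPM per kb (43.9 and 24.2), then *Slc2a1* at 32.5 ± 7.18 (37.6 and 27.4) and *Pgk1* at 28.7 ± 0.119 (28.6 and 28.8). These 3 genes could not be ordered, since their replicates overlapped. *Hk1* reached 17 ± 1.95 CPM per kb (18.4 and 15.6) and *Pfkfb3* 11.9 ± 6.24 (7.47 and 16.3), which overlapped with each other and lay below *Pgk1*. These were the lowest levels among the 8 genes past the limit on low counts.

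*Hk2* was close to absent. Its row held 11 reads over the 701 kept wells, at most 4 in a well, and a read was found in 2 of 338 wells of replicate 1 (0.592%, exact Clopper-Pearson 95% interval 0.0717 to 2.12%) and in 6 of 363 wells of replicate 2 (1.65%, 0.609 to 3.56%). It had no read in 45 artery-like and 123 vein-like wells of replicate 1, where 3 counts of the total give limits of 6.67% and 2.44% and the exact intervals end at 7.87% and 2.95%. *Hk1*, the other hexokinase gene of the list, was detected far more often, in 151 of 338 wells (44.7%) in replicate 1 and in 77 of 363 (21.2%) in replicate 2. Of this pair of hexokinase genes, nearly all reads were thus those of *Hk1*. Intervals of shares take wells as the units, and wells of a replicate are not replicates of a class. They thus cover counting error only and not the spread between replicates. The reads carry no molecular identifiers.

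How a read was assigned bears on part of this order. Of the 50-base stretches of the *Eno1* transcript, the length of a read, 72.2% also occur in transcripts of other genes, chiefly *Eno1b*, and of those of *Pgk1*, 68.0% occur elsewhere, chiefly in the pseudogene *Pgk1-rs7*. The share was 34.4% for *Pkm*, 17.1% for *Ldha*, 17.1% for *Pfkp* (the overlapping gene *Pitrm1*), 1.74% for *Slc2a1* (the antisense gene *Gm12868*), 0.654% for *Pfkfb3* and 0% for *Hk1* and *Hk2*. *Pgk1-rs7* held 4 reads over the kept wells, against 6720 of *Pgk1*. The setting used for reads with several matches is not given in the sources used here. Per 1000 stretches that no other gene shares, *Ldha* reached 588 and 337 CPM in replicates 1 and 2, *Eno1* 540 and 302, *Pkm* 337 and 256, and *Pgk1* 91.7 and 92.3. On that scale, chosen after the data were seen, *Ldha*, *Eno1* and *Pkm* overlapped with each other, and *Pgk1* lay above *Pfkp* (53.6 and 29.6). Comparisons of 1 gene between classes use the same stretches in every class.

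**Figure D1:**
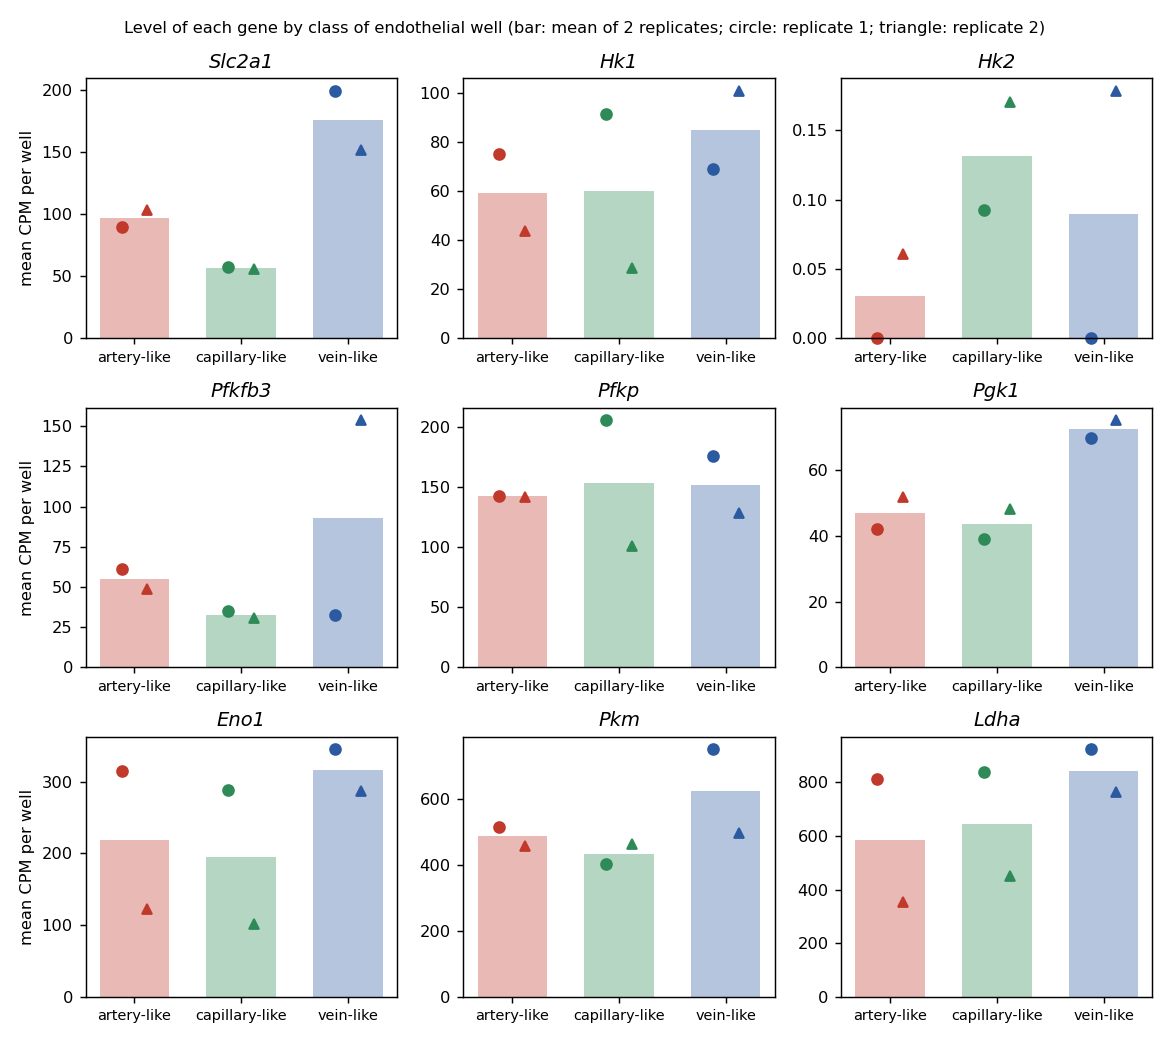
Mean CPM per well of each of the 9 genes in artery-like, capillary-like and vein-like wells; bars are the mean of 2 replicates, circles replicate 1 and triangles replicate 2, each panel with its own axis from 0. *Slc2a1* was lowest in capillary-like and highest in vein-like wells in both replicates, while *Hk2* reached at most 0.179 CPM.

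*Slc2a1*, the glucose transporter gene, showed the clearest order of classes. Its mean CPM per well was 57.1 in replicate 1 and 55.5 in replicate 2 in capillary-like wells, 89.6 and 103 in artery-like wells, and 199 and 151 in vein-like wells. The replicates of the classes did not overlap. The means were 56.3 ± 1.19, 96.4 ± 9.63 and 175 ± 33.8 CPM (SD, n = 2). On single plates the vein-like wells had between 108 and 228 CPM, the artery-like between 34.5 and 165 CPM and the capillary-like between 37.7 and 80.7 CPM, so the artery-like plates overlapped with both other classes and the vein-like plates lay above the capillary-like.

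Most *Slc2a1* reads of a class lay in few of its wells, while more wells held at least 1 read. In vein-like wells 81 of 123 (65.9%, 95% interval 56.8 to 74.2%) of replicate 1 and 40 of 126 (31.7%, 23.7 to 40.6%) of replicate 2 held a read. In capillary-like wells the share was 54 of 125 (43.2%, 34.4 to 52.4%) and 7 of 37 (18.9%, 7.96 to 35.2%), and in artery-like wells 26 of 45 (57.8%, 42.2 to 72.3%) and 21 of 91 (23.1%, 14.9 to 33.1%). The classes kept the same order by share as by level in both replicates. The intervals of artery-like wells overlapped with both other classes in replicate 1, and all intervals overlapped in replicate 2.

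Wells above 500 CPM of *Slc2a1*, a limit chosen after the values were seen, made up 20 of 123 (16.3%) and 13 of 126 (10.3%) vein-like wells in replicates 1 and 2. They made up 6 of 125 (4.80%) and 2 of 37 (5.41%) capillary-like wells, and 3 of 45 (6.67%) and 5 of 91 (5.49%) artery-like wells. In the vein-like wells of replicate 1, 12 wells together held at least 50% of the 4792 *Slc2a1* reads, against 3 wells for the 1140 reads of the capillary-like wells. In the capillary-like wells of replicate 2, a single well held 52.8% of the 265 reads. With the highest well of each class and replicate left out, the capillary-like wells stood at 46.4 and 33.7 CPM, the artery-like at 64.7 and 67.7 CPM and the vein-like at 186 and 131 CPM, in the same order. The order did not hold under other limits on contaminating cells. With wells kept up to 300 CPM of the excluded markers, capillary-like wells had 77.0 CPM and artery-like wells 74.8 CPM, and with wells kept up to 10 CPM, artery-like wells had 186 CPM and vein-like wells 139 CPM.

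**Figure D2:**
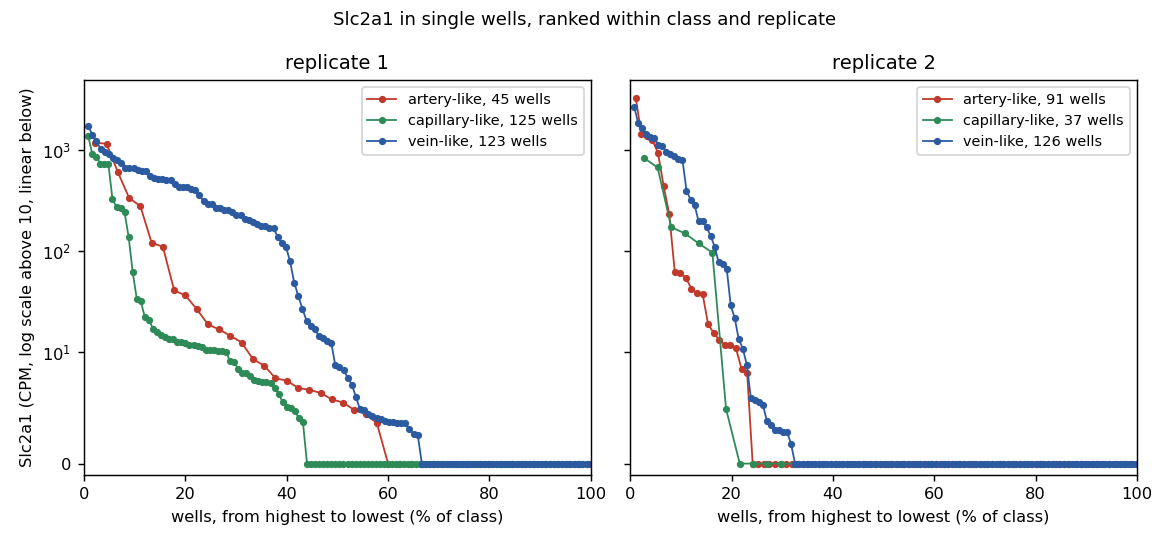
*Slc2a1* CPM of every artery-like, capillary-like and vein-like well, ranked from highest to lowest within class and replicate, as a share of the class; the vertical axis is logarithmic above 10 CPM and linear below. Wells with a read end at 65.9% of vein-like wells in replicate 1, and between 18.9% and 31.7% of the wells of a class in replicate 2.

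Among hexokinase and phosphofructokinase genes no class stood apart in both replicates. *Hk1* had mean CPM per well of 74.9 and 43.9 in artery-like, 91.5 and 28.6 in capillary-like, and 68.9 and 101 in vein-like wells of either replicate in turn. Vein-like wells were lowest in replicate 1 and highest in replicate 2. Without the highest well of each class, the replicate 1 values were 51.4, 80.5 and 64.4 CPM, so vein-like wells were no longer lowest, and the capillary-like value of replicate 2 was 18.9 CPM. *Pfkp* had 142 and 142 CPM in artery-like, 206 and 101 CPM in capillary-like, and 176 and 128 CPM in vein-like wells. The capillary-like wells were highest for *Pfkp* in replicate 1 and lowest in replicate 2, where 1 well held 56.1% of the reads and the mean without it was 43.8 CPM. *Pfkfb3* had 61.3 and 48.8 CPM in artery-like, 35 and 30.7 CPM in capillary-like, and 32.5 and 154 CPM in vein-like wells. A single vein-like well of replicate 2, at 4200 CPM, held 28.0% of the 4175 *Pfkfb3* reads of its class, and without it the mean was 121 CPM. In capillary-like wells of replicate 2, 1 well held 69.4% of the *Pfkfb3* reads, and without it the mean was 14.5 CPM.

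The genes of the later steps had their highest mean CPM per well in vein-like wells at the reported limit on other cells, and this order turned at a limit of 10 CPM. *Pgk1* had 70.0 and 75.3 CPM in vein-like wells of replicates 1 and 2, against 42.3 and 51.8 CPM in artery-like and 39.2 and 48.1 CPM in capillary-like wells. The last value rested on 4 wells with a read and was 19.9 CPM without the highest of them. *Eno1* had 345 and 287 CPM in vein-like, 315 and 122 CPM in artery-like, and 288 and 102 CPM in capillary-like wells. *Pkm* had 752 and 499 CPM in vein-like, 517 and 460 CPM in artery-like, and 402 and 466 CPM in capillary-like wells. For *Pgk1* the vein-like replicates did not overlap with those of the other classes, while for *Eno1* they overlapped with both. For *Pkm* they overlapped with the artery-like replicates and lay above the capillary-like ones. At 10 CPM, where classes held 2 to 44 wells, *Pgk1* was 128 CPM in artery-like against 52.9 CPM in vein-like wells, *Eno1* 341 CPM in capillary-like against 321 CPM, and *Pkm* 773 CPM in artery-like against 665 CPM.

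*Ldha* had 923 and 764 CPM in vein-like, 840 and 450 CPM in capillary-like, and 813 and 354 CPM in artery-like wells. Replicate 1 was higher than replicate 2 in every class, and the replicates of the classes overlapped. A read of *Ldha* was found in all 45 artery-like, all 125 capillary-like and all 123 vein-like wells of replicate 1, and in 70 of 91 (76.9%), 27 of 37 (73.0%) and 108 of 126 (85.7%) wells of replicate 2.

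Vein-like wells had the highest mean CPM of the 3 classes in both replicates for 5 of 8 genes (*Slc2a1*, *Pgk1*, *Eno1*, *Pkm* and *Ldha*), against 18.5% of the 15659 genes. Capillary-like wells had the lowest in both for 3 of 8 (*Slc2a1*, *Pgk1* and *Eno1*), against 19.1% of all genes. With every well thinned to 20000 reads, vein-like wells remained highest in both replicates for 4 of 8, all but *Pkm* of the 5, against 16.5% of all genes, and capillary-like wells lowest for 1 of 8, *Slc2a1*, against 14.8%. At a limit of 10 CPM vein-like wells were highest in both replicates for 0 of 8 (15.3% of all genes) and capillary-like wells lowest for 1 of 8, *Slc2a1* (8.28%), and at 300 CPM the counts were 5 of 8 (18.1%) and 0 of 8 (15.7%). In the counts summed per class and replicate, vein-like wells were highest in both only for *Slc2a1* and *Pgk1* (13.2% of all genes), and capillary-like wells lowest only for *Slc2a1* (14.4%). The order of the classes over these genes thus depended on how wells were kept and weighted. Transcripts that respond to tissue dissociation (18 genes such as *Fos*, *Atf3* and *Dnajb1*) also differed in summed level, with none of them past the test given below. Their summed level was 28796 and 21296 CPM in vein-like wells, against 14799 and 9439 CPM in artery-like and 13170 and 8823 CPM in capillary-like wells. The part of the dissociation response in the levels of the glycolysis genes was not tested.

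Shares of wells with a read were also compared at equal depth. After thinning each well to 20000 reads, with 6 artery-like, 14 capillary-like and 8 vein-like wells of replicate 2 left out as too shallow, *Slc2a1* was found in 42.3% of vein-like wells of replicate 1 (95% interval 33.4 to 51.5%), 26.7% of artery-like (14.6 to 41.9%) and 14.4% of capillary-like wells (8.76 to 21.8%). In replicate 2 the shares were 19.5% (12.8 to 27.8%), 14.1% (7.51 to 23.4%) and 13.0% (2.78 to 33.6%). The intervals of vein-like and capillary-like wells were apart in replicate 1 and overlapped in replicate 2, which describes the wells of each replicate and tests no difference between classes. *Ldha* was found in 95.1%, 93.3% and 90.4% of vein-like, artery-like and capillary-like wells of replicate 1, and in 78.0%, 50.6% and 52.2% of those of replicate 2. *Eno1* was found in 87.8%, 75.6% and 72.0% of them in replicate 1 and in 61.0%, 32.9% and 30.4% in replicate 2. Vein-like wells had the highest share for *Slc2a1*, *Pgk1*, *Eno1*, *Pkm*, *Pfkp* and *Ldha* in both replicates at this depth, 6 of 8 genes, against 28.6% of all genes. For the 20000-read wells, no *Hk2* read remained in replicate 1, where 3 counts of 337 wells give a limit of 0.890% and the exact interval ends at 1.09%.

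**Figure D3:**
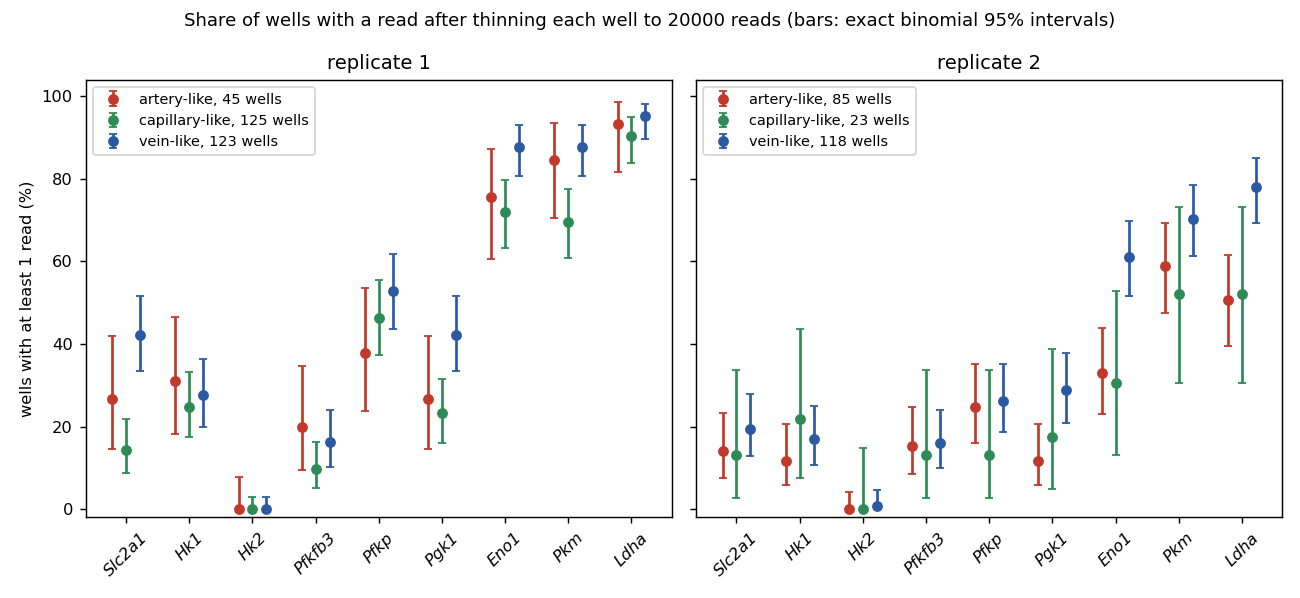
Share of wells with at least 1 read of each gene after thinning every well to 20000 reads, in replicate 1 (left) and replicate 2 (right), by class; bars are exact binomial 95% intervals and cover counting error only. *Ldha*, *Pkm* and *Eno1* were found in 69.6% or more of wells of each class in replicate 1, and *Hk2* in at most 0.847% of any class.

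To test the classes against each other, counts were summed per class and replicate into 6 sums of 3167140 to 25037991 reads, and fitted over all 15659 genes with edgeR's quasi-likelihood test. Levels of the sums are CPM scaled by TMM, in which deep wells weigh more than in the mean per well. None of the 8 genes tested passed an adjusted p of 0.05 (Benjamini-Hochberg over all genes) between artery-like and vein-like wells or between capillary-like wells and the mean of the other classes. Over all genes the share called was 0% in both comparisons, and 4.32% and 4.85% of genes had an unadjusted p under 0.05, against 0 of 8 here. With DESeq2's Wald test 184 and 292 of all genes were called, and again none of these 8. For any difference between classes 0.00639% of genes was called, a single gene, the vein marker *Selp*, which helped to define the classes. The spread between the replicates was wide. On simulated sums with this spread (median dispersion 0.835), the same test over 14940 genes recovered 0% of 93 genes changed 2-fold in capillary-like wells. Of 95 genes changed 4-fold it recovered 7.37%. With a dispersion of 0.05 it recovered 36.7% of 98 and 86.9% of 99 such genes. The changed genes were picked from all genes tested, and recovery was not simulated for the 8 genes themselves.

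*Slc2a1* came nearest to the threshold. In the sums it stood at 61.9 and 94.4 CPM in capillary-like, 98.3 and 174 CPM in artery-like, and 185 and 177 CPM in vein-like wells of replicates 1 and 2. The capillary-like sum lay below both other sums in each replicate, and its difference from their log2 average, with TMM scaling over the 6 sums, was -1.12 in replicate 1 alone and -0.89 in replicate 2 alone. With TMM estimated within each replicate's 3 sums these values were -1.11 and -1.01, where the median of all genes was 0.10 and -0.64. In the fit, the log2 fold change of capillary-like wells over the averaged artery-like and vein-like wells was -1.02 ± 0.459 (SE), a ratio of 0.492, with a 95% interval of -2.09 to 0.0359. The unadjusted p of edgeR was 0.0565 and the adjusted p was 0.896, so *Slc2a1* did not pass. A value at least 1 log2 unit lower in both replicates was found for 1 of 8 genes, *Slc2a1*, against 9.87% of all genes with scaling within the replicate, and for 0 of 8, against 9.77%, with scaling over the 6 sums. The value remained negative under all 11 alternative fits, from -3.10 to -0.76, with unadjusted p between 0.0186 and 0.125. Marker lists differed in level beside *Slc2a1*, with no gene of them past the test. The median log2 fold change of capillary-like wells over the others was -1.30 for 5 erythroid genes, whose summed level was 91.4 and 2.93 CPM in capillary-like, 263 and 22.6 CPM in artery-like, and 36.5 and 5.19 CPM in vein-like wells, with *Alas2*, *Hba-a1* and *Hbb-bt* at 0 in capillary-like wells of replicate 2. It was -0.53 for the 18 dissociation genes and 0.80 for 6 fibroblast genes tested. With scaling within the replicate, 5 of 5 erythroid, 10 of 18 dissociation and 1 of 6 fibroblast genes were lower in both replicates, against 28.9% of all genes. Of the fibroblast genes 1 of 6 was higher in both. Other lists had medians of -1.65 for 3 immune, -1.12 for 4 Schwann and nerve and -0.75 for 6 keratinocyte genes tested. The medians were -0.33 for 7 lymphatic, 0.09 for 10 mural and 2.49 for 3 skeletal muscle genes. Their part in the value of *Slc2a1* was not tested. Between artery-like and vein-like wells the log2 fold change of *Slc2a1* was -0.48 ± 0.510 (95% interval -1.66 to 0.70, adjusted p of edgeR 0.9997), and it changed sign at a limit of 10 CPM (0.61) and with classes made from marker scores (0.15). At the next resolution, where the vein-like class held 69 and 60 wells, it was -0.03.

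**Figure D4:**
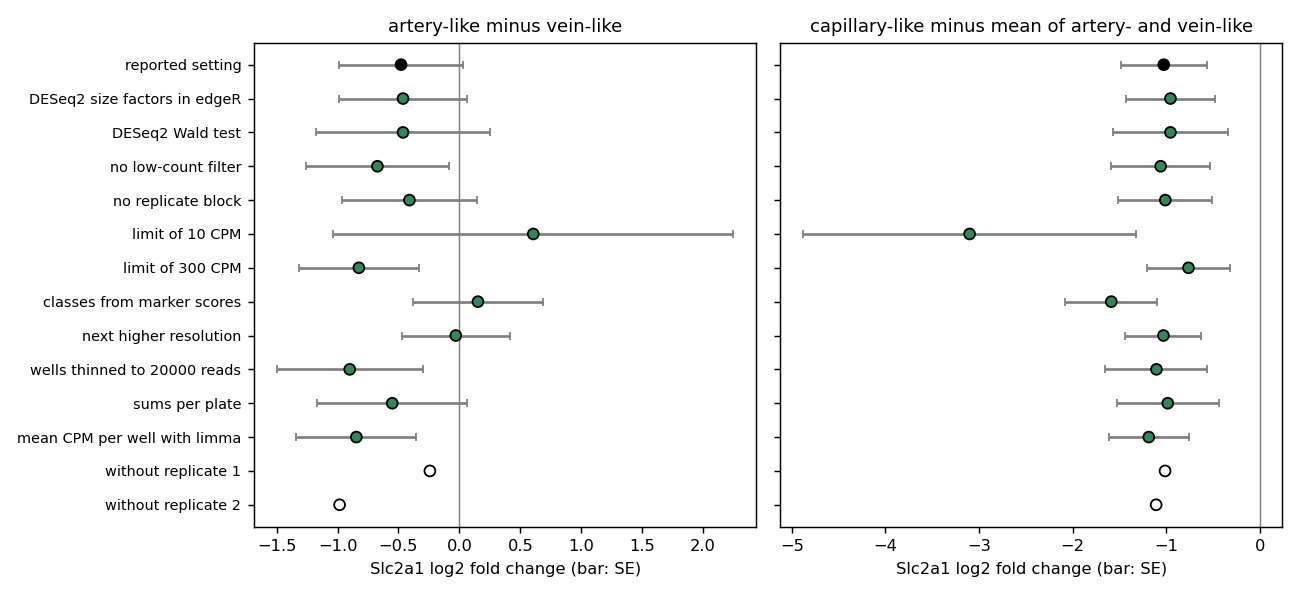
Log2 fold change of *Slc2a1* for artery-like minus vein-like wells (left) and capillary-like minus the mean of the other classes (right) under the reported setting (black), 11 alternative fits (green) and each replicate left out in turn (open); bars are SE where a fit gives one. The right panel runs from -3.10 to -0.76, and the left panel crosses 0.

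The other genes gave smaller or less stable values for capillary-like wells against the mean of the other classes. *Pfkfb3* had a log2 fold change of -0.73 ± 0.796 (adjusted p of edgeR 0.905) and *Hk1* of -0.33 ± 0.596 (adjusted p 0.951), whose values in single replicates were 0.16 and -0.91 with scaling within the replicate. *Pgk1* had -0.22 ± 0.617 and *Eno1* -0.088 ± 0.350. *Pfkp* had 0.23 ± 0.446, *Ldha* 0.22 ± 0.294 and *Pkm* 0.16 ± 0.370, and each of these 3 had opposite signs in the replicates. The 95% interval of *Ldha* ran from -0.46 to 0.89. Capillary-like values were lower in both replicates for 4 of 8 genes (*Slc2a1*, *Pfkfb3*, *Pgk1* and *Eno1*), against 28.9% of all genes, with scaling within the replicate, and for 3 of 8, without *Eno1*, against 28.1%, with scaling over the 6 sums. In the fit the median log2 fold change was -0.15 both for the 8 genes and for all genes.

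Between artery-like and vein-like wells all 8 genes had negative values, from -0.66 ± 0.964 for *Pfkfb3* to -0.12 ± 0.512 for *Pfkp*, all with an adjusted p of edgeR of 0.9997. *Pgk1* had -0.61 ± 0.709, *Hk1* -0.41 ± 0.680, *Pkm* -0.34 ± 0.423, *Eno1* -0.34 ± 0.405 and *Ldha* -0.31 ± 0.342. The median was -0.38 for the 8 genes and -0.06 for all genes. With scaling within the replicate, artery-like values were lower in both replicates for 6 of 8, all but *Hk1* and *Pfkfb3*, against 34.1% of all genes. With scaling over the 6 sums this held for 2 of 8, *Slc2a1* and *Pgk1*, against 29.5% of all genes, so the count depended on the scaling. *Pfkfb3* went from 0.95 in replicate 1 alone to -2.26 in replicate 2 alone with the former scaling. Markers of other cells differed in summed level in this comparison, with no gene of them past the test. The level of 7 fibroblast genes was 971 and 252 CPM in artery-like against 199 and 70.1 CPM in vein-like wells. That of 5 erythroid genes was 263 and 22.6 CPM against 36.5 and 5.19 CPM, with no gene of either list at 0 in these classes. The 18 dissociation genes, also none past the test, had a median log2 fold change of -0.76. With scaling within the replicate, 15 of these 18 were lower in artery-like wells in both replicates, against 34.1% of all genes. Their part in the values of the glycolysis genes was not tested.

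**Figure D5:**
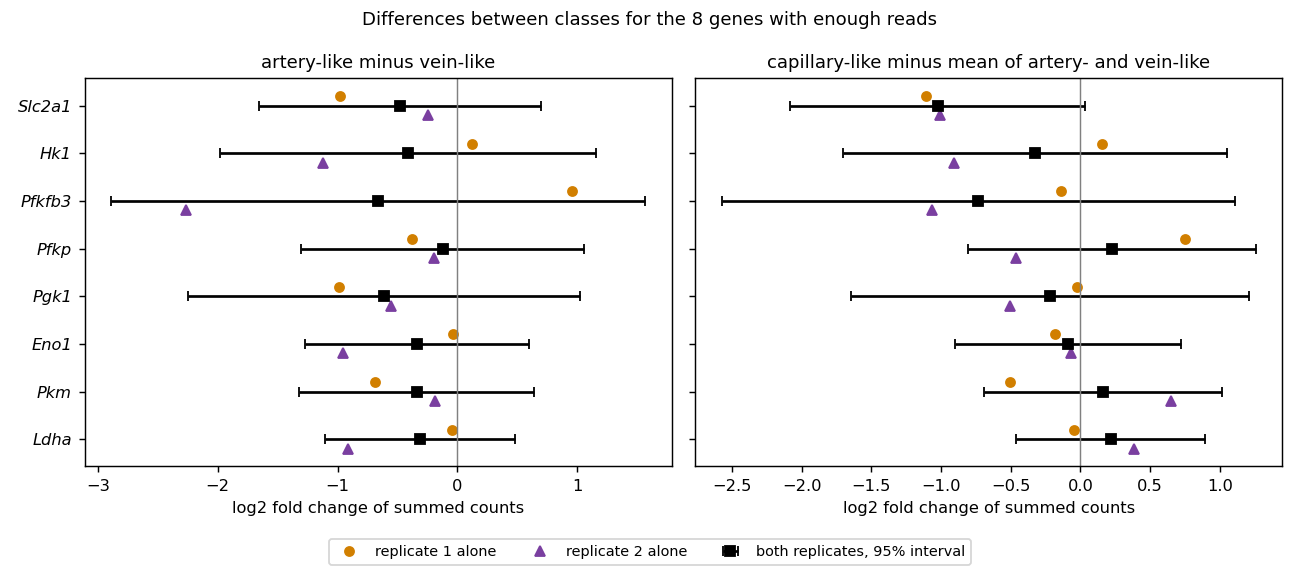
Log2 fold changes of summed counts for the 8 genes past the limit on low counts, artery-like minus vein-like wells (left) and capillary-like minus the mean of the other classes (right); squares are the fit over both replicates with 95% intervals, circles replicate 1 alone and triangles replicate 2 alone, scaled within the replicate. Every interval includes 0, and *Slc2a1* in the right panel comes nearest to leaving it, at an upper bound of 0.0359.

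Of the other genes of the pathway, with the members left out of each list, none passed the test in either comparison and direction: 0 of 9 transporters tested for glucose and monocarboxylates (11 listed), 0 of 10 glycolytic enzymes (18 listed), 0 of 14 regulators of glycolysis and pyruvate entry (15 listed) and 0 of 7 genes of the pentose phosphate pathway. Their median log2 fold changes were -1.47, -0.21, -0.50 and 0.05 for artery-like against vein-like wells, and -0.67, -0.69, 0.07 and -0.25 for capillary-like wells against the others. The transporter list combined abundant and nearly silent genes. *Bsg*, whose product escorts lactate transporters to the membrane, had 1579 ± 634 CPM in artery-like, 1128 ± 155 CPM in capillary-like and 1221 ± 105 CPM in vein-like wells (SD, n = 2). *Slc2a8*, another glucose transporter gene, had 22.1 ± 16.2 CPM in artery-like, 25.6 ± 33.7 CPM in capillary-like and 41.9 ± 22 CPM in vein-like wells. *Slc2a3*, which encodes GLUT3, was detected in only 22 of 338 kept wells of replicate 1 (6.51%) and 23 of 363 of replicate 2 (6.34%), and stood at 0.463 CPM per kb against 32.5 CPM per kb of *Slc2a1*. *Slc2a1* was thus the main glucose transporter transcript of the pair.

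*Aldoa*, the aldolase gene and the most abundant enzyme gene of the list in the sums, had 719 ± 211 CPM in artery-like, 667 ± 235 CPM in capillary-like and 836 ± 184 CPM in vein-like wells, which overlapped. Among the other isozyme genes, *Pfkl* had 257 and 92.6 CPM in the artery-like wells (replicates 1 and 2), 105 and 12.8 CPM in capillary-like and 105 and 79.4 CPM in vein-like wells. *Ldhb*, which encodes the other main lactate dehydrogenase subunit, reached 9.73 CPM per kb over the kept wells against 372 CPM per kb of *Ldha*. Of these subunit genes, *Ldha* was thus the more abundant. For pyruvate entry into mitochondria, *Pdhb* and *Pdha1*, both of pyruvate dehydrogenase, had 132 ± 19.3 and 51.9 ± 26.9 CPM in artery-like, 90.3 ± 8.52 and 70.3 ± 7.81 CPM in capillary-like, and 120 ± 4.07 and 117 ± 35.3 CPM in vein-like wells. *Pdp1*, which encodes a phosphatase that activates this enzyme, had 69.1 ± 23.4, 40.6 ± 10.1 and 73.7 ± 20.4 CPM in the same classes. *Taldo1*, *Tkt* and *Pgls* of the pentose phosphate pathway had class means between 83.5 and 173 CPM.

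Hypoxia-inducible factors regulate many of these genes, and *Epas1* and *Hif1a*, which encode their oxygen-sensitive subunits, were both expressed. *Epas1* had 1226 and 906 CPM in artery-like, 1293 and 612 CPM in capillary-like, and 791 and 706 CPM in vein-like wells. *Hif1a* had 379 and 397 CPM in artery-like, 266 and 332 CPM in capillary-like, and 512 and 776 CPM in vein-like wells, so the vein-like replicates lay above those of the other classes. Vein-like wells were highest in both replicates for 18.5% of all genes, and the order for *Hif1a* was not checked under other limits on contaminating cells. *Egln2*, a prolyl hydroxylase gene of the oxygen-sensing step, had 76.6 ± 80.6 CPM in artery-like, 123 ± 8.80 CPM in capillary-like and 87.3 ± 56.2 CPM in vein-like wells. None of 8 hypoxia regulators tested (9 listed) and none of 15 hypoxia targets outside glycolysis (18 listed) passed the test in either comparison, with medians of -0.80 and -0.51 for artery-like against vein-like wells and 0.03 and -0.32 for capillary-like wells against the others. Of the targets, *Ndrg1* had 1161 and 1304 CPM in vein-like, 737 and 1180 CPM in capillary-like, and 682 and 566 CPM in artery-like wells. *Bhlhe40*, a transcriptional repressor gene, had 560 and 459 CPM in vein-like, 328 and 225 CPM in capillary-like, and 256 and 110 CPM in artery-like wells. *Bnip3*, a mitophagy receptor gene, had 162 ± 26.3 CPM in vein-like, 85.0 ± 102 CPM in capillary-like and 128 ± 81.0 CPM in artery-like wells. Transcription factors tied to endothelial glycolysis, *Klf2*, *Klf4* and *Myc* among them, had 0 of 6 past the test, with medians of 0.28 and -0.82. *Myc* had 591 and 499 CPM in vein-like, 158 and 40.6 CPM in artery-like, and 75.4 and 31.6 CPM in capillary-like wells, and it was among the genes that led the vein-like cluster, so its values are a description. *Klf2* and *Klf4*, flow-responsive factors, had 426 ± 9.89 and 295 ± 121 CPM in artery-like, 328 ± 126 and 126 ± 72.4 CPM in capillary-like, and 510 ± 28.1 and 190 ± 11.4 CPM in vein-like wells.

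Within single wells the members varied largely apart from each other. Over the 338 kept wells of replicate 1 and the 363 of replicate 2, Pearson's r of log2(CPM + 1) between pairs of the 9 genes had its highest mean over replicates for *Eno1* and *Ldha*, at 0.10 and 0.31, and for *Pkm* and *Ldha*, at 0.17 and 0.21. *Slc2a1* reached 0.14 and 0.10 with *Eno1* and 0.01 and 0.22 with *Ldha*. The points share the depth of the well, with which the sum of the members correlated at 0.32 and 0.55, and correlations this weak in sparse counts were not read further. Of 3924 genes with a read in at least 20% of wells in both replicates, *Gapdh*, another glycolytic enzyme gene, had the highest mean r with the sum of the members (0.35 and 0.38), above that of depth itself in replicate 1 and below it in replicate 2, and just ahead of *Rpl18*, *Esam*, *Hspa8* and *Rpl17*, with means between 0.34 and 0.36. Over all kept wells these 5 genes correlated with depth at 0.50 to 0.63. The genes nearest to *Slc2a1* were *Csf2rb2*, *Hoxd10*, *Nfil3*, *Cds2* and *Pip4p1*, with means between 0.20 and 0.24.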

How the data were processed

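Counts of 4 plates of ear dermal BECs were used. Deposited values are raw counts, with genes as rows and wells as columns: the authors aligned 50-base single reads to mm10 and removed duplicated reads before counting, and the submitters' processing notes name TopHat2 2.1.1, SAMtools 0.1.18 and Subread 1.4.6-p5. Settings for strand and multiply mapped reads are not given in the sources used here. GENCODE vM21 gave symbols for 46005 of 46517 identifiers, and 92 spike-ins were left out. Wells were kept with at least 600 counts, 500 to 8000 genes, reads from 2 or more of the BEC genes *Kdr*, *Pecam1* and *Cdh5*, and less than 100 CPM for *Kcnj8*, *Pdgfrb*, *Ptprc*, *Prox1* and *Lyve1* alike. The methods name the excluded genes without a level, and 100 CPM was taken because 10 CPM was known from earlier work on these files to leave 18 wells in replicate 1. Doublets were limited only by the number of genes. Plates held 31864976 to 74739095 reads.

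Size factors came from scran 1.30.0, and 15 components of 1000 variable genes were clustered with leidenalg 0.10.2 at resolution 0.6, the first in rising order with every class present in each replicate. Sums were tested with edgeR 4.0.16 (TMM, at least 10 counts in at least 2 sums, a block for replicate, leaving 2 residual degrees of freedom). Between classes, deviations of the replicate 1 sums from the class means had correlations of 0.135, 0.163 and 0.122. These are too low to settle whether the replicate number pairs the sums. Replicate entered as a block because the classes of a replicate share its plates, and the labels do not say whether a replicate was 1 sort. The code was tested on simulated data. Named besides the members were, per pathway list, genes called in either comparison (none) and the 3 highest in the sums, and other isozymes were named after their values were seen. The members and lists were chosen with earlier results of these data known.

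Alternatives were DESeq2 1.42.0 size factors and its Wald test, all genes without the low-count filter, no block, limits of 10 and 300 CPM, classes from marker scores, the next resolution, thinning to 20000 reads, sums per plate, mean CPM with limma 3.58.1 (log2, pseudocount 1) and leaving out each replicate. Values of single replicates were scaled by TMM within the replicate, and scaling over the 6 sums was added after seeing the data.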

Additional observations from a re-analysis of the deposited data

Results flagged for a closer look

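Over the 4 plates, 45 sets of mean CPM (9 genes in 5 groups of wells) were checked for a plate far from the others, and 4 had one. Chance gives about 1 in 20 for sets of varying values, a rate that does not apply to the *Hk2* sets, where 0 on all other plates makes any single value stand apart by construction. *Hk1* in the unnamed wells was 70.9 CPM on plate A of replicate 2, against 3.22 to 14.1 CPM on the other plates. *Hk2* was 0.115 CPM in artery-like wells on plate B of replicate 2, 0.352 CPM in vein-like wells on plate A of replicate 2 and 0.0467 CPM in unnamed wells on plate B of replicate 2, and 0 on the other plates of these groups. The *Hk2* values rest on at most 4 reads in any well.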

How the results depend on the processing

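No member passed the threshold under any of the 11 alternative fits. The count of all genes called between artery-like and vein-like wells, 0 as reported, was 184 with DESeq2's Wald test, 32 with no low-count filter, 14 at a limit of 10 CPM, 3 at the next resolution, 3 after thinning and 7 with sums per plate. For capillary-like wells against the mean of the others, 0 as reported, it was 292, 20, 34 and 13 with the Wald test, no filter, 10 CPM and thinning. For any difference, 1 as reported, it was 187, 52 and 44 with the Wald test, no filter and 10 CPM, 24 after thinning, 12 with sums per plate, 3 at the next resolution, 2 at 300 CPM, and 0 with no replicate block, marker scores or limma. The fit without the replicate as a block changed no call of a member.

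Signs turned for artery-like against vein-like wells in *Slc2a1* (0.61 at 10 CPM, 0.15 with marker scores), *Pfkfb3* (1.20 with marker scores), *Pgk1* (2.47 at 10 CPM, 0.086 with marker scores, 0.13 at the next resolution), *Pkm* (0.12 at 10 CPM) and *Ldha* (0.072 with marker scores). With 1 replicate left out, *Hk1* ran from -1.12 to 0.12 and *Pfkfb3* from -2.26 to 0.95. For capillary-like wells against the others they turned in *Hk1* (0.0997 at 10 CPM), *Pfkfb3* (2.73 at 10 CPM, 0.67 with marker scores), *Pfkp* (-0.020 with limma), *Eno1* (0.22 at 10 CPM, 0.0083 at 300 CPM, 0.077 with marker scores), *Pkm* (-0.41 at 10 CPM, -0.057 at 300 CPM, -0.20 with marker scores, -0.34 with limma) and *Ldha* (-0.17 at 300 CPM, -0.12 at the next resolution, -0.13 with limma). With 1 replicate left out, *Hk1* ran from -0.91 to 0.16, *Pfkp* from -0.46 to 0.75, *Pkm* from -0.50 to 0.65 and *Ldha* from -0.044 to 0.38. The cause was not tested. The median of all genes shifted by -0.58 in the artery-like comparison at 10 CPM, where the classes held 2 to 44 wells.

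Of the levels under other limits, after thinning or without the highest well (the last chosen after seeing the data), 75 moved by less than the spread between replicates and 33 by more. At 10 CPM *Pfkfb3* in capillary-like wells went from 32.8 to 154 CPM, *Pgk1* in artery-like wells from 47.1 to 128 CPM, *Eno1* in capillary-like wells from 195 to 341 CPM and *Pkm* in artery-like wells from 488 to 773 CPM. Depth limits what the near absence of *Hk2* reads shows, and 2 replicates limit all tests.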

Other observations

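*Slc16a3* and *Egln3* were named here after their values had been seen. *Slc16a3*, which encodes the lactate exporter MCT4, had 6.94 and 6.04 CPM in vein-like wells of replicates 1 and 2, against 0 and 0.165 CPM in artery-like and 0.0943 and 0 CPM in capillary-like wells. The unadjusted p of edgeR between artery-like and vein-like wells was 0.0269 and the adjusted p was 0.9997, so it did not pass. *Egln3*, a prolyl hydroxylase gene that hypoxia-inducible factors induce, had 42.7 and 65.8 CPM in vein-like, 0.988 and 16.6 CPM in artery-like, and 0.432 and 13.4 CPM in capillary-like wells, with an unadjusted p of 0.0423 and an adjusted p of 0.9997 for the same comparison.

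The 46 wells with mural markers, which the limits on *Pdgfrb* and *Kcnj8* kept out of the classes, had *Slc2a1* detected in 7 of 8 wells (replicate 1) and 4 of 38 wells (replicate 2), at 5.19 and 62.7 CPM. They had 465 and 573 CPM of *Ldha*, 347 and 280 CPM of *Pkm* and 1.95 and 0.912 CPM of *Pfkfb3*. *Pfkfb3* in the kept endothelial wells was 34.6 and 75.5 CPM.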
